A study of Mus musculus with 3 samples.

Results

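The pro-apoptotic effectors Bax and Bak1 and the BH3-only genes Bad, Bid, Bik, Bmf, Bcl2l11 (BIM), Bbc3 (PUMA) and Pmaip1 (NOXA) were followed through splenic B cells. They are 9 of the 32285 genes counted, and were taken by their symbols. Single-cell RNA was measured 10 days after 1 injection of sheep red blood cells (SRBC), which induces germinal centers (GC). There was 1 library each for 3′RR-BCL2, Igκ-BCL2 and wildtype (WT) mice. In 3′RR-BCL2 mice (labelled Tg 3'RR-BCL2), a randomly integrated human BCL2 cassette is controlled by joined enhancers of the immunoglobulin heavy chain 3′ regulatory region. In Igκ-BCL2 mice (labelled KI Igk-BCL2), the same cassette, which in both models keeps the BCL2 promoters, takes the place of the Jκ segments, next to the Eκ enhancer. The study describes hemizygous mice of both models, in a mixed B6/129 background, and the age, the zygosity and the number of mice behind each library are not given in the sources used here. RNA of the human cassette was not analysed here.

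The outer membrane of mitochondria is the point where these genes act. BAX and BAK1 form pores in it, which release cytochrome c and so activate caspases. BCL2 and its relatives hold BAX and BAK1 back, and BH3-only proteins bind those guardians or activate the pore formers directly. B cells depend on this balance at several steps, as BIM limits the number of resting B cells and many GC B cells die unless they are selected.

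The libraries held 7034 to 11269 barcodes and 37433924 to 62777659 UMIs (unique molecular identifiers, each counting 1 captured RNA molecule). After cell filters, 6561 cells of 3′RR-BCL2, 6242 of Igκ-BCL2 and 9932 of WT remained, with medians of 5291, 4838 and 5031 UMIs. Of all barcodes before these filters, 18 were shared by both BCL2 libraries, 15 by 3′RR-BCL2 and WT, and 24 by Igκ-BCL2 and WT. The labels name whole tissue cells for both BCL2 libraries and sorted B cells for WT, whereas the methods of the study describe magnetic B cell sorting for all 3. In resting cells, the summed level of 8 T cell genes was 3.20, 2.18 and 1.84 UMIs per 1000000 UMIs (UPM) in 3′RR-BCL2, Igκ-BCL2 and WT. That of 8 macrophage genes was 3.97, 3.998 and 23.4, and that of 6 B cell identity genes 8517, 8932 and 8888. The 10 heat shock genes listed summed to 5692 and 8151 UPM in resting cells of the 3′RR-BCL2 and Igκ-BCL2 libraries, against 2117 in WT.

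Cells were placed in 8 classes by the number of marker genes with at least 1 UMI. Resting cells numbered 4255, 4886 and 7618 in 3′RR-BCL2, Igκ-BCL2 and WT. The MYC-high class (cells outside GC with at least 4 of 8 markers such as Myc) held 671, 464 and 1388 cells. Its median depth was 7224, 8010 and 7469.5 UMIs in these libraries, against 4829, 4557 and 4623 in resting cells. The non-dividing GC class held 691, 334 and 56, and the dividing GC class 118, 31 and 44. Marginal zone cells numbered 125, 35 and 189, interferon-activated cells 95, 73 and 113, and transitional cells 37, 57 and 112. The plasma-marker class held 43, 29 and 21 cells, and went partly against its name, as described with its values. Levels are given in UPM, and their 95% intervals cover counting error only.

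Windows upstream of 3 BH3-only genes are shown because resting cells of the Igκ-BCL2 library held more of their RNA than those of WT. Each holds the 250 bases before a RefSeq start (GRCm38.p6), written 5′ to 3′ on the strand of the gene, with capitals on the FOXO letters GTAAACA in either orientation. The Bmf window (chr2:118549687-118549936, minus strand) holds none. That of Bcl2l11 (chr2:128125788-128126037, plus strand) and that of a Bbc3 start inside the gene body (chr7:16310011-16310260, plus strand) hold 1 each.
Bmf: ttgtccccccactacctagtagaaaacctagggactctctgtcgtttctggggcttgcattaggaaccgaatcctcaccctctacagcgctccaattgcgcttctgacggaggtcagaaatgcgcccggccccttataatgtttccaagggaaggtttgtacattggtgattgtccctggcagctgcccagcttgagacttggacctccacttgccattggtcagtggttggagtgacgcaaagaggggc
Bcl2l11: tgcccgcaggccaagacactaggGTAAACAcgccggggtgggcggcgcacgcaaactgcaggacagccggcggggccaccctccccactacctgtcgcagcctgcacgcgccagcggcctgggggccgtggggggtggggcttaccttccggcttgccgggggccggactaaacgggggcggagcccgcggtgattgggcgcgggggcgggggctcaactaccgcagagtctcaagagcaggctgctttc
Bbc3: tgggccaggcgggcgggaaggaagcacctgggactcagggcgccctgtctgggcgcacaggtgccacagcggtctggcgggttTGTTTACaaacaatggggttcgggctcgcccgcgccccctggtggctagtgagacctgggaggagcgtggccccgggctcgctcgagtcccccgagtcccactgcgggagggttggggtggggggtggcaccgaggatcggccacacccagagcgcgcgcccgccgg

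The FOXO letters began 227 bases before the Bcl2l11 start and 167 bases before that Bbc3 start. Among 32851 mouse windows of this length, 3.17% hold these letters on either strand. The RefSeq table held 13 windows for 7 of the members (Bik and Pmaip1 are not shown), and 2 of the 13 held the FOXO letters. These are the Bcl2l11 and Bbc3 windows shown, and the other windows of Bmf, Bcl2l11 and Bbc3 held none. The E-box letters CACGTG stood in 2 windows, of Bax and of another Bbc3 start, against 6.02% of all windows. The cAMP response letters TGACGTCA stood in none of the 13, against 1.55% of all windows. These letters are a description of the sequence, and binding was not measured.

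Class contrasts asked where in B cell activation the members are expressed. UMIs were summed per class and library and tested with edgeR (quasi-likelihood, library as a term, Benjamini-Hochberg over 9003 genes). The p-values thus reflect how far class differences vary between these 3 libraries, with the spread estimated over all classes. Each library is another genotype, so that this spread also holds any genotype difference in the class contrasts. Bik, a BH3-only gene of the endoplasmic reticulum, had at most 4 UMIs in any class of any library and was not tested. In resting cells its 4, 0 and 3 UMIs in 3′RR-BCL2, Igκ-BCL2 and WT gave 0.181, 0 and 0.0777 UPM, with an upper bound of 0.152 for the 0. The other 8 members passed the filter on low counts.

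In non-dividing GC cells, 5 of the 8 members tested rose relative to resting cells and 1 fell, where 21.1% of all genes rose and 19.5% fell. The genes that rose were Bbc3, Bad, Bid, Bak1 and, by a small margin, Bcl2l11, and Pmaip1 fell. The median log2 fold change of the 8 was 0.71, against -0.0035 over all genes. In dividing GC cells, Bak1, Bad, Bbc3 and Bid rose and Pmaip1 fell, where 25.4% of all genes rose and 24.1% fell. The median of the 8 was 0.75 there, against -0.04 over all genes.

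Bak1, the pore former that is held in check at the membrane by MCL1 and BCL-xL, stood at 37.7, 33.8 and 36.7 UPM in non-dividing GC cells of 3′RR-BCL2, Igκ-BCL2 and WT. It reached 63.7, 45.1 and 68.3 in dividing GC cells. In resting cells it was 17.9, 17.8 and 18.4, lower than in both GC classes of the same library. The log2 fold change over resting cells was 1.001 ± 0.14 (SE) in non-dividing GC cells (adjusted p = 4.8e-07). In dividing GC cells it was 1.69 ± 0.18 (adjusted p = 3.0e-09).

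Bax, which resides in the cytosol until activated, was not called in either GC class. Its values in non-dividing GC cells were 113.3, 104.3 and 119.3 UPM in 3′RR-BCL2, Igκ-BCL2 and WT, and in resting cells 98.9, 82.1 and 100. The log2 fold change of 0.23 ± 0.11 did not pass (adjusted p = 0.095). In dividing GC cells it was 0.02 ± 0.14 (adjusted p = 0.90).

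Bad, whose protein is kept inactive by survival kinases and binds BCL2 and BCL-xL, was 36.0, 27.0 and 38.5 UPM in non-dividing GC cells of 3′RR-BCL2, Igκ-BCL2 and WT. Resting cells held 12.6, 11.7 and 12.6, lower in each library. Its log2 fold change was 1.39 ± 0.17 (adjusted p = 7.2e-08), and 1.51 ± 0.25 in dividing GC cells (adjusted p = 6.3e-06). It was not called in MYC-high cells, at -0.04 ± 0.16 (adjusted p = 0.91).

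Bid, which is cleaved by caspase-8 and links death receptors to mitochondria, was 43.6, 34.1 and 75.2 UPM in non-dividing GC cells of 3′RR-BCL2, Igκ-BCL2 and WT. Resting cells held 19.9, 16.9 and 21.3. The log2 fold change was 1.21 ± 0.14 (adjusted p = 1.1e-08) in non-dividing and 1.40 ± 0.20 (adjusted p = 6.1e-07) in dividing GC cells. Bid was also higher in 2 classes outside GC. In MYC-high cells it was 32.8, 35.1 and 38.5 UPM, a log2 fold change of 0.88 ± 0.12 (adjusted p = 1.6e-06). In marginal zone cells it was 38.5, 45.7 and 53.4, a log2 fold change of 1.27 ± 0.18 (adjusted p = 4.6e-06).

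Bbc3, a BH3-only gene induced by p53 and by FOXO factors, was 17.7, 27.8 and 18.3 UPM in non-dividing GC cells of 3′RR-BCL2, Igκ-BCL2 and WT. In dividing GC cells it was 19.4, 25.8 and 17.6. Resting cells held 7.99, 7.75 and 4.40, lower in each library. The log2 fold changes were 1.48 ± 0.25 (adjusted p = 1.6e-05) and 1.502 ± 0.39 (adjusted p = 0.0016) in the non-dividing and dividing class. The calls of Bak1, Bad, Bid and Bbc3 held in 14 of 14 alternatives for non-dividing and 13 of 13 for dividing GC cells.

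Bcl2l11, whose protein binds all anti-apoptotic relatives, was 94.9, 127.6 and 91.7 UPM in non-dividing GC cells of 3′RR-BCL2, Igκ-BCL2 and WT. Resting cells held 68.4, 95.5 and 66.1. The groups overlapped across libraries, although GC cells were higher within each. The log2 fold change of 0.42 ± 0.16 (adjusted p = 0.036) was called in 8 of 14 alternatives. It missed the threshold without the 3′RR-BCL2 library (0.43, adjusted p = 0.21) and without the Igκ-BCL2 library (0.46, adjusted p = 0.078). In dividing GC cells it was 0.11 ± 0.22 (adjusted p = 0.70).

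Pmaip1, which binds MCL1 selectively, was 61.3, 38.6 and 26.4 UPM in dividing GC cells of 3′RR-BCL2, Igκ-BCL2 and WT. Resting cells held 99.99, 87.1 and 60.1, higher in each library. Its log2 level fell by 0.89 ± 0.19 in dividing GC cells (adjusted p = 1.8e-04), a call that held in 13 of 13 alternatives. In non-dividing GC cells it was 69.9, 72.4 and 55.1 UPM. There it fell by 0.39 ± 0.13 (adjusted p = 0.015), and 10 of 14 alternatives kept the call. Without the 3′RR-BCL2 library the log2 fold change was -0.20 (adjusted p = 0.47). Hspa1a and Hspa1b, heat shock genes that differ between the libraries, were also lower in non-dividing GC cells, by log2 fold changes of -1.83 ± 0.27 (adjusted p = 2.0e-06) and -2.18 ± 0.24 (adjusted p = 5.7e-09), and their part in the Pmaip1 result was not tested.

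Bmf, which is tethered to the cytoskeleton by dynein light chains until released, was not called in either GC class. It was 17.8, 27.0 and 9.17 UPM in non-dividing GC cells of 3′RR-BCL2, Igκ-BCL2 and WT, and 10.96, 31.2 and 8.81 in resting cells. The log2 fold change was 0.26 ± 0.19 (adjusted p = 0.30), and 0.64 without the Igκ-BCL2 library (adjusted p = 0.041). In dividing GC cells it was 0.06 ± 0.32 (adjusted p = 0.89), and -0.76 with a looser cell filter (adjusted p = 0.024).

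**Figure D1:**
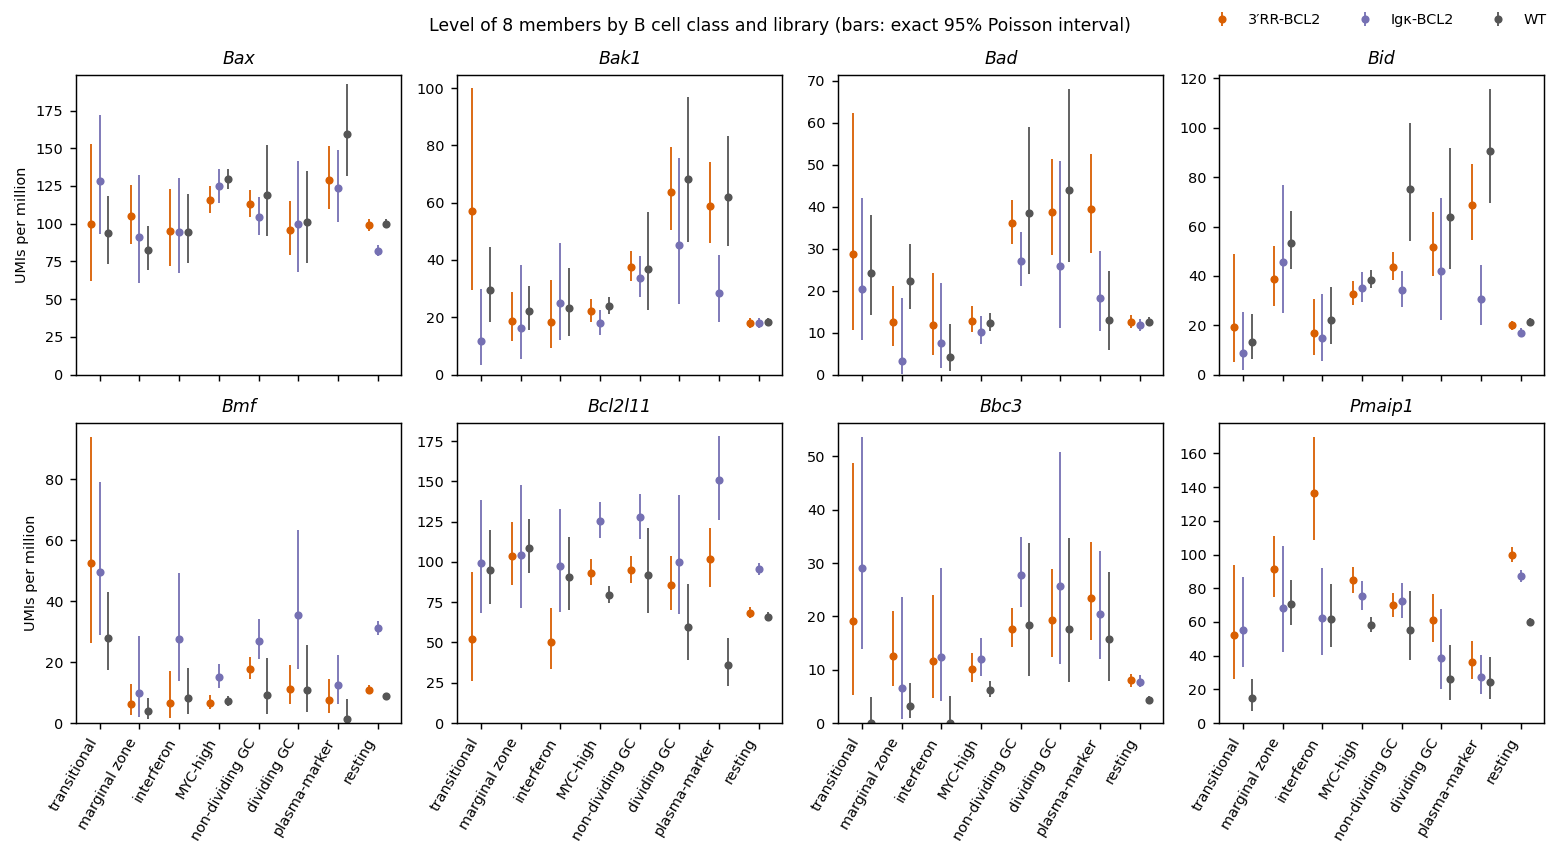
Level of 8 members in UPM (vertical axes, linear, from 0) by B cell class (horizontal axes) in the 3′RR-BCL2, Igκ-BCL2 and WT libraries, with exact 95% Poisson intervals as bars. Bak1, Bad, Bid and Bbc3 stand higher in both GC classes than in resting cells of the same library, while Bmf in resting cells is 31.2 in Igκ-BCL2, against 8.81 in WT.

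In MYC-high cells, Bid and Bax rose and Bmf fell, where 10.3% of all genes rose and 5.4% fell. Bax was 115.8, 124.7 and 129.6 UPM in MYC-high cells of 3′RR-BCL2, Igκ-BCL2 and WT, above the 98.9, 82.1 and 100 of resting cells. Its log2 fold change was 0.43 ± 0.10 (adjusted p = 0.0025), and 13 of 14 alternatives kept the call. Bmf was 6.70, 15.02 and 7.23 UPM, lower than resting cells in each library. It fell by 0.64 ± 0.18 on the log2 scale (adjusted p = 0.011), and 10 of 14 alternatives kept the call. Bcl2l11 was 93.4, 125.5 and 79.6 UPM and narrowly missed the threshold, with a log2 fold change of 0.40 ± 0.14 (adjusted p = 0.054), and 0.46 without the WT library (adjusted p = 0.016). Without the Igκ-BCL2 library 1 of the 3 calls was left, as Bax was at 0.33 (adjusted p = 0.099) and Bmf at -0.42 (adjusted p = 0.25).

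In marginal zone cells, which respond rapidly to blood-borne antigen, 2 of the 8 members rose and 0 fell, where 5.93% of all genes rose and 4.44% fell. They were Bid, given above, and Bcl2l11. Bcl2l11 was 103.9, 104.4 and 108.8 UPM in marginal zone cells of 3′RR-BCL2, Igκ-BCL2 and WT, a log2 fold change of 0.67 ± 0.18 (adjusted p = 0.014) over resting cells. That call held in 8 of 13 alternatives, and not without the 3′RR-BCL2 library (0.68, adjusted p = 0.17) or the WT library (0.57, adjusted p = 0.0503). Bmf was 6.27, 9.79 and 3.82 UPM, with a log2 fold change of -1.11 ± 0.37 (adjusted p = 0.053) from 7, 3 and 6 UMIs.

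In transitional cells, recent emigrants from the bone marrow, Bmf rose and Pmaip1 fell, where 2.23% of all genes rose and 1.94% fell. Bmf was 52.4, 49.5 and 28.1 UPM in transitional cells of 3′RR-BCL2, Igκ-BCL2 and WT, each above its resting value. The log2 fold change was 1.30 ± 0.29 (adjusted p = 0.0052), called in 7 of 11 alternatives. Pmaip1 was 52.4, 55.3 and 14.7 UPM, and fell by 1.32 ± 0.24 on the log2 scale (adjusted p = 7.6e-04). Without the WT library neither was called (Bmf 1.09, adjusted p = 0.16, and Pmaip1 -0.89, adjusted p = 0.11), and without the 3′RR-BCL2 library Bmf was not (1.09, adjusted p = 0.096). These sums rest on 11, 17 and 21 UMIs of Bmf and on 11, 19 and 11 of Pmaip1. The 37 transitional cells of 3′RR-BCL2 also held 1659 UPM of 8 macrophage genes, of which 4 were at 0, against 2.91 in Igκ-BCL2 and 10.7 in WT, and the part of this in the result was not tested.

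In interferon-activated cells, edgeR called 0 of the 8 members, with 0 at an unadjusted p under 0.05 and 0 by DESeq2. Of all genes, 2.62% rose and 0.0333% fell in this class.

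**Figure D2:**
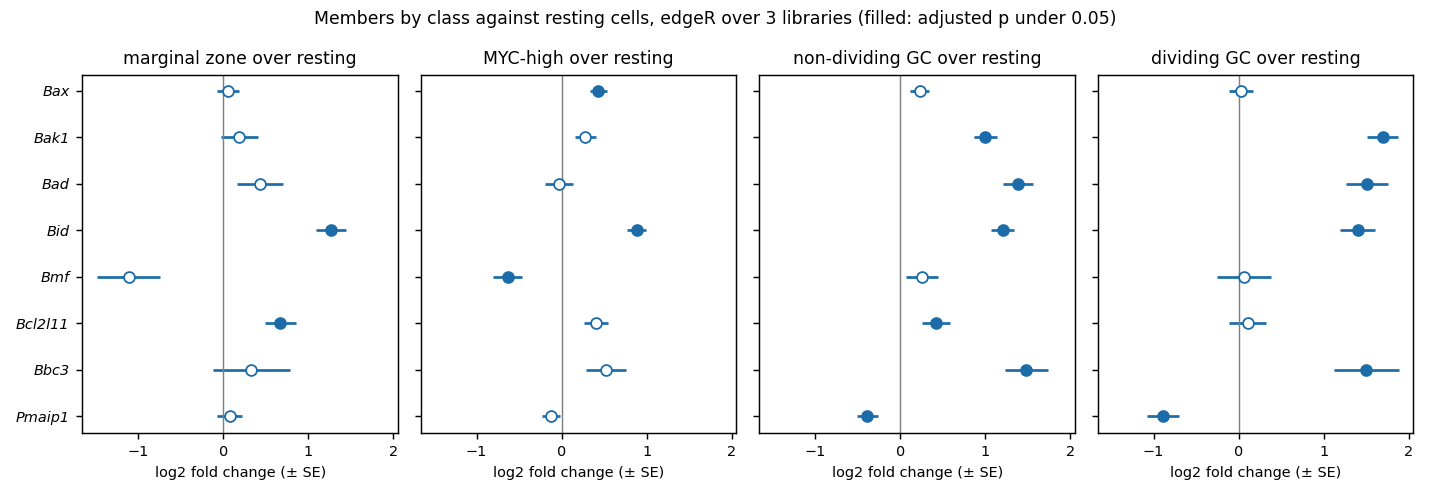
Log2 fold change (horizontal axis) of 8 members in 4 B cell classes over resting cells, from edgeR over 3 libraries, with standard errors as bars and filled points at an adjusted p under 0.05. Bid is filled in each of the 4 panels, while Bak1, Bad and Bbc3 are filled in the GC panels alone, at 1.001 to 1.694. The plasma-marker class, where all of these were also called, is not shown.

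Partners of the members moved in both directions in non-dividing GC cells. Of 7 anti-apoptotic genes, 5 were tested, 3 rose and 1 fell, where 21.1% of all genes rose and 19.5% fell. Bcl2l1, which encodes BCL-xL, rose by 1.47 ± 0.37 on the log2 scale (adjusted p = 0.0019), and Bcl2a1d by 1.05 ± 0.28 (adjusted p = 0.0032). Mouse Bcl2 fell by 1.12 ± 0.30 (adjusted p = 0.0035), with 43.0, 205.3 and 29.4 UPM in 3′RR-BCL2, Igκ-BCL2 and WT, against 124.6, 227.8 and 172.1 in resting cells. Whether reads of the human cassette were counted as mouse Bcl2 was not tested. The Bcl2a1 copies are nearly identical, so that reads could be split among them.

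Of 10 genes of the apoptosome and downstream of it, 3 rose and 2 fell in non-dividing GC cells, shares close to those of all genes. Casp6, a caspase, had a log2 fold change of 0.78 ± 0.15 (adjusted p = 8.4e-05). Endog, a mitochondrial nuclease, fell by 0.99 ± 0.25 (adjusted p = 0.0017). Of 8 regulators and anchors tested, 4 rose and 1 fell. Bcl6, the repressor that defines GC B cells, rose by 1.28 ± 0.15 (adjusted p = 3.0e-08), and Vdac2, a channel that recruits BAK1 to mitochondria, by 0.90 ± 0.11 (adjusted p = 3.9e-08). Foxo3, which activates Bcl2l11 and Bbc3, fell by 1.12 ± 0.14 (adjusted p = 8.9e-08). Of 10 p53 targets, 5 were tested and 1, Sesn2, rose.

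Markers of other cells also moved with the GC classes. Of 6 red blood cell genes, the 1 tested, Hbb-bt, was higher by 2.82 ± 0.27 (adjusted p = 3.5e-10) in non-dividing and 3.41 ± 0.34 (adjusted p = 5.0e-10) in dividing GC cells. The summed red blood cell level in non-dividing GC cells was 32.2, 27.0 and 27.5 UPM in 3′RR-BCL2, Igκ-BCL2 and WT, with 2, 2 and 5 of the 6 genes at 0. In resting cells it was 17.2, 12.8 and 5.98, and its part in the results was not tested.

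The plasma-marker class needed 6 of 10 secretory and plasma cell markers, with no upper limit on UMIs. Its median depth was 25105, 17529 and 32209 UMIs in 3′RR-BCL2, Igκ-BCL2 and WT, and the median immunoglobulin share was 1.5%, 16.4% and 1.14%. Most cells of 3′RR-BCL2 and WT in this class thus lacked the high immunoglobulin share of plasma cells, and the class was divided at 10% immunoglobulin after its values were seen. The part at or above it held 9, 19 and 7 cells with 41510, 42710 and 42510 UPM of Jchain, the joining chain of secreted antibodies. The part below held 34, 10 and 14 cells with 1587, 1152 and 815 UPM of it. The undivided class also held 1219, 449.4 and 985.3 UPM of the GC markers, against 24.9, 19.9 and 8.45 in resting cells. Its dividing markers stood at 2502, 1207 and 2327 UPM, against 3721, 2685 and 2813 in dividing GC cells. Over the undivided class, 6 of the 8 members were called higher and 1 lower, where 30.6% of all genes rose and 29.4% fell. The higher ones were Bax, Bak1, Bad, Bid, Bcl2l11 and Bbc3, and Pmaip1 was lower. By edgeR, Bak1 rose by 1.71 (adjusted p = 4.3e-10), Bad by 1.29 (adjusted p = 3.6e-05) and Bbc3 by 1.83 (adjusted p = 2.2e-05). The part of the GC and dividing markers in these calls was not tested. Bad was at 0.78 without 3′RR-BCL2 (adjusted p = 0.085), and Bcl2l11, called at 0.65 ± 0.19 (adjusted p = 0.0038), was at 0.61 without 3′RR-BCL2 (adjusted p = 0.056) and 0.33 without Igκ-BCL2 (adjusted p = 0.24).

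Among cells with at least 10% immunoglobulin, Bcl2l11 was high in those of Igκ-BCL2, while its level in both other libraries rested on 1 cell each. Counted per 1000000 UMIs without immunoglobulin, it was 354.6 in cells of 3′RR-BCL2 (95% interval 261 to 470), 410.3 in those of Igκ-BCL2 (332 to 502) and 175.4 in those of WT (98.1 to 289). A single cell held 36 of the 48 Bcl2l11 UMIs in 3′RR-BCL2, 18 of 95 in Igκ-BCL2 and 11 of 15 in WT. Without that cell, left out after the data were seen, the levels were 113.1 (58.5 to 198), 360.1 (284 to 450) and 58.6 (15.97 to 150). The cells below 10% held 77.6, 87.5 and 18.4 in the same libraries. With the cells of at least 10% in place of the whole class, sums of 9, 19 and 7 cells, edgeR called 4 members, where 14.3% of all genes rose and 13.9% fell. Bcl2l11 was higher than in resting cells by a log2 fold change of 2.32 (adjusted p = 1.8e-12), a fit that was not repeated without those single cells. Bbc3 was higher by 2.77 (adjusted p = 0.000158) from 5, 13 and 2 UMIs, and Bax by 0.71 (adjusted p = 0.012). Pmaip1 was lower, at -1.05 (adjusted p = 0.043). Bid, called at 1.95 in the whole class (adjusted p = 1.4e-11), was at 0.14 there (adjusted p = 0.89).

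**Figure D3:**
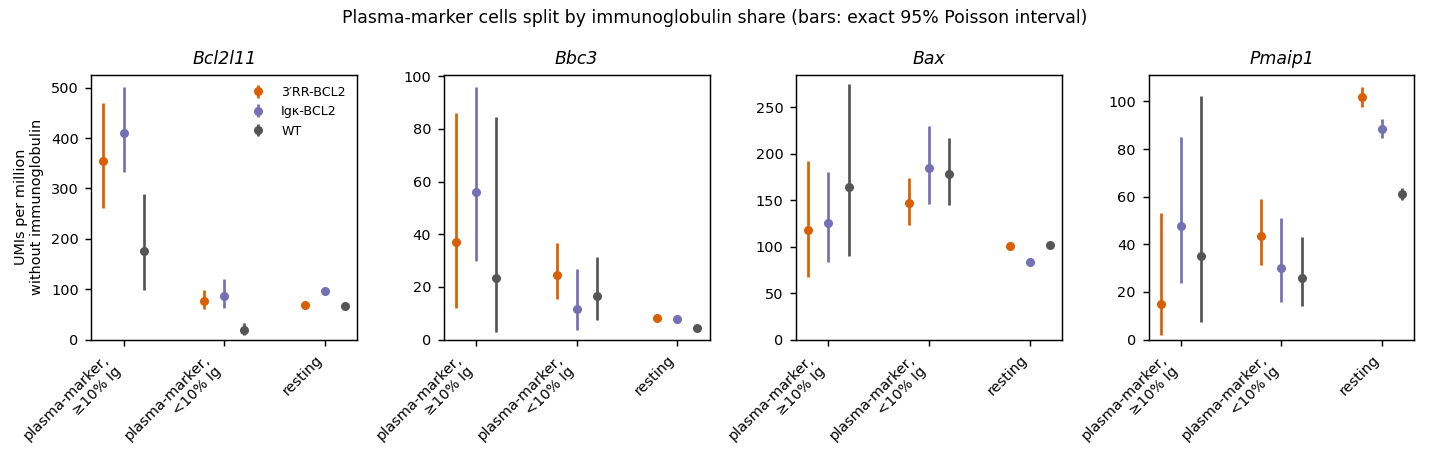
Levels of 4 members per 1000000 UMIs without immunoglobulin (vertical axes, from 0) in plasma-marker cells with at least 10% immunoglobulin UMIs, in those with less, and in resting cells, by library, with exact 95% Poisson intervals. Bcl2l11 reaches 354.6, 410.3 and 175.4 in the first set of 3′RR-BCL2, Igκ-BCL2 and WT, and 113.1, 360.1 and 58.6 without the cell that holds most of its UMIs.

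The second question was whether the members differ between BCL2 mice and WT within a class. With 1 library per genotype no test is possible, and library, mouse, cell preparation and genotype cannot be told apart. Ratios of UPM carry exact 95% intervals that cover counting error only, and a gene counted as past the fold at 1.5-fold either way with at least 20 UMIs over both libraries. In resting cells, 2 of the 8 members with enough UMIs were past it in 3′RR-BCL2, Bbc3 and Pmaip1, both higher, where 4.13% of all genes were higher and 5.93% lower. In Igκ-BCL2 there were also 2, Bmf and Bbc3, both higher, where 9.13% of all genes were higher and 5.4% lower.

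Bmf was the member that differed most between Igκ-BCL2 and WT in resting cells. It had 757 UMIs in Igκ-BCL2 and 340 in WT, or 31.2 against 8.81 UPM, a ratio of 3.54 (3.11 to 4.04). These UMIs lay in 619 and 311 cells, with at most 5 and 3 in a cell. The 3′RR-BCL2 library had 243 UMIs, or 10.96 UPM, a ratio to WT of 1.25 (1.05 to 1.47). Igκ-BCL2 over 3′RR-BCL2 gave 2.85 (2.46 to 3.30). In MYC-high cells, Bmf was 15.02 in Igκ-BCL2, against 7.23 UPM in WT, a ratio of 2.08 (1.46 to 2.94). Among MYC-high cells with 3000 to 6000 UMIs, a band chosen after the data were seen, that ratio was 0.92 (0.30 to 2.38) from 6 and 20 UMIs. In non-dividing GC cells the ratio was 2.95 (1.205 to 9.35), from 72 UMIs in Igκ-BCL2 and 5 in WT. Over the 4 classes with enough UMIs, the ratio of Igκ-BCL2 to WT was above 1 in 4, from 1.76 to 3.54. The counting interval lay above 1 in 3 of them.

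Bcl2l11, the other BH3-only gene on chromosome 2, was also higher in Igκ-BCL2. Resting cells held 95.5 UPM in Igκ-BCL2 and 66.1 in WT, a ratio of 1.45 (1.37 to 1.53), while 3′RR-BCL2 held 68.4, a ratio of 1.03 (0.97 to 1.10). In MYC-high cells the ratio of Igκ-BCL2 to WT was 1.58 (1.41 to 1.76), and in non-dividing GC cells 1.39 (1.03 to 1.91). Over all 8 classes, which come from the same libraries, Igκ-BCL2 was above WT in 7 and above 3′RR-BCL2 in 8. The counting interval lay above 1 in 4 and 5 of them.

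Bbc3 and Pmaip1 were higher in resting cells of both BCL2 libraries. Bbc3 in resting cells was 7.99 and 7.75 UPM in 3′RR-BCL2 and Igκ-BCL2, against 4.40 in WT. The ratios to WT were 1.81 (1.46 to 2.25) and 1.76 (1.42 to 2.18). In MYC-high cells they were 1.62 (1.12 to 2.34) and 1.92 (1.29 to 2.81). Pmaip1 in resting cells was 99.99 and 87.1 UPM in 3′RR-BCL2 and Igκ-BCL2, against 60.1 in WT, with ratios of 1.66 (1.57 to 1.76) and 1.45 (1.37 to 1.54). Over the 8 classes, which come from the same libraries, 3′RR-BCL2 was above WT for Pmaip1 in 8 and Igκ-BCL2 in 7. The counting interval lay above 1 in 5 and 3 of them.

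The heat shock genes stood out beside these ratios. Of 10 measured, 9 were past 1.5-fold higher than WT in resting cells of each BCL2 library, and Hspa1a stood at 498.6 and 1023 UPM in 3′RR-BCL2 and Igκ-BCL2, against 6.50 in WT. Cells without a UMI of Hspa1a or Hspa1b were a set chosen after the data were seen. It left 1124, 475 and 7110 of the 4255, 4886 and 7618 resting cells of 3′RR-BCL2, Igκ-BCL2 and WT. The part of the heat shock difference in the ratios was not tested. Among these cells the ratio of Bmf in Igκ-BCL2 over WT was 3.77 (2.89 to 4.86), against 3.54 in all resting cells. That of Bcl2l11 was 1.69 (1.48 to 1.92), against 1.45. For Pmaip1 the ratio to WT of the 3′RR-BCL2 library was 1.35 (1.22 to 1.502) and that of Igκ-BCL2 1.18 (0.998 to 1.39). For Bbc3 they were 1.77 (1.23 to 2.49) and 1.19 (0.60 to 2.15), and in MYC-high cells of Igκ-BCL2 it was 0.83 (0.099 to 3.14) from 2 UMIs.

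Bak1, Bad, Bax and Bid were short of 1.5-fold from WT in resting cells of both BCL2 libraries. Bax and Bid were lower in Igκ-BCL2, with the ratios of Bid given below. Bak1 had ratios of 0.97 (0.85 to 1.10) and 0.97 (0.86 to 1.09) in 3′RR-BCL2 and Igκ-BCL2. Bad had 0.998 (0.86 to 1.16) and 0.93 (0.80 to 1.08). Bax stood at 98.9 and 82.1 UPM in the BCL2 libraries, against 100 in WT, with ratios of 0.99 (0.94 to 1.04) and 0.82 (0.78 to 0.87). The interval of Bax in Igκ-BCL2 lay below 1 but short of 1.5-fold.

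Bid was lower in non-dividing GC cells of both BCL2 libraries. Its 43.6 and 34.1 UPM in non-dividing GC cells of 3′RR-BCL2 and Igκ-BCL2, against 75.2 in WT, gave ratios of 0.58 (0.41 to 0.83) and 0.45 (0.31 to 0.67). Bid was the 1 member past 1.5-fold lower in each comparison, where 12.9% and 12.2% of all genes were. The higher members were Bmf in 3′RR-BCL2, and Bmf and Bbc3 in Igκ-BCL2, where 16.3% and 17.9% of all genes were higher. The WT value rests on 41 UMIs in 56 cells. The median depth of the class was 7333 and 7599 UMIs in 3′RR-BCL2 and Igκ-BCL2, against 10252.5 in WT, and the part of this gap was not tested. The 8 MYC-high markers summed to 439.9 and 378.0 UPM in this class of 3′RR-BCL2 and Igκ-BCL2, against 761.5 in WT. Their part was not tested either. In resting cells the ratios of Bid were 0.93 (0.83 to 1.05) and 0.79 (0.70 to 0.89), and in dividing GC cells 0.81 (0.51 to 1.30) and 0.66 (0.31 to 1.30).

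In MYC-high cells, 1 member was past 1.5-fold in 3′RR-BCL2 (Bbc3) and 3 in Igκ-BCL2 (Bmf, Bcl2l11 and Bbc3), all higher, where 4.3% and 6.51% of all genes were higher and 5.77% and 6.54% lower.

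**Figure D4:**
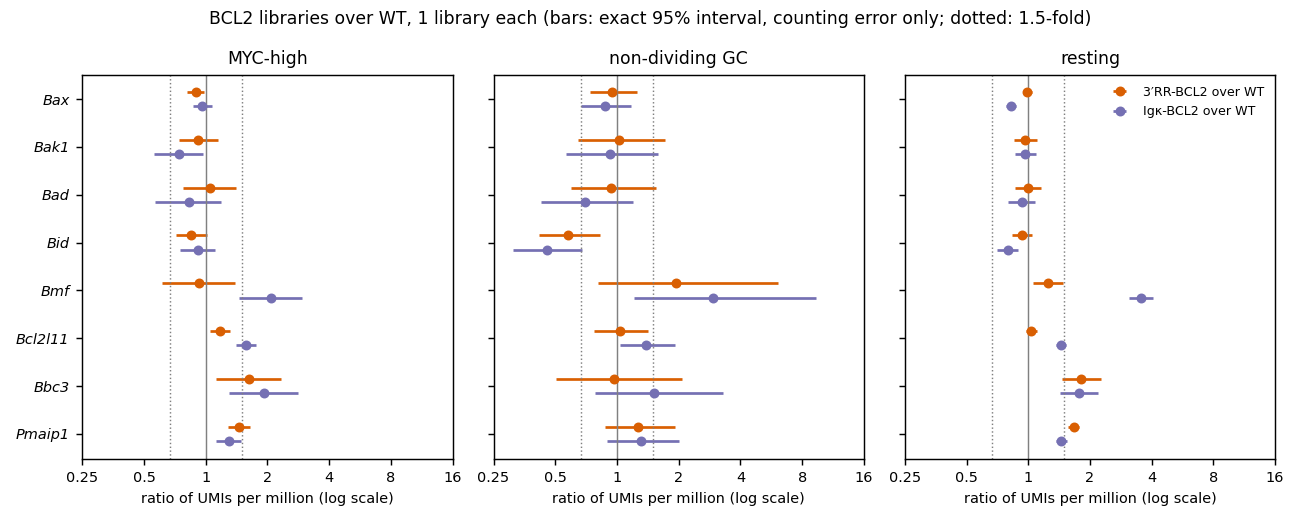
Ratio of UPM (horizontal axis, log scale) of 8 members in 3′RR-BCL2 and Igκ-BCL2 over WT within 3 B cell classes, 1 library each, with exact 95% intervals for counting error only and dotted lines at 1.5-fold. Bmf in resting cells stands at 3.54 in Igκ-BCL2 and Bid in non-dividing GC cells at 0.58 and 0.45.

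Genes with the most similar pattern were sought over the 24 class and library sums, which share depth and libraries, so that Pearson's r is a description. Bak1 was closest to Psmd8 (r = 0.90), Anapc11 (0.90) and Nedd8 (0.90). Bid followed the ribosomal protein gene Rplp0 (0.91) and Rgs10 (0.89). Pmaip1 followed Rps27rt (0.90), Ppp1r15a (0.85) and Ifrd1 (0.83). Bmf followed Cir1 (0.87), Cdc42ep3 (0.85) and Serinc5 (0.83), and Bbc3 Pim1 (0.84), Aars (0.84) and Mgat2 (0.80). Bax was closest to Wdr46 (0.85) and Bad to Hes6 (0.85), while no gene came nearer to Bcl2l11 than Gm38394 (0.75). Among the members themselves, Bak1 was closest to Bad (0.68) and Bid (0.60), and Bid and Bmf ran opposite (-0.60).

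The gene bodies of the members can overlap others (GENCODE vM21, GRCm38). Bak1 (chr17:27019810-27029009) overlaps Ggnbp1, Bad (chr19:6941861-6951899) overlaps Gpr137 and Bid (chr6:120891930-120916853) overlaps Bcl2l13, each a counted gene on the opposite strand. On their own strand, Bax (chr7:45461697-45466898) overlaps the protein-coding gene Gm45808 and Bid overlaps Gm44260, neither of which was a counted gene. Bbc3 lies on the same chromosome as Bax, at chr7:16308393-16318205. Bmf (chr2:118528757-118549687) and Bcl2l11 (chr2:128126038-128162547) share chromosome 2.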

How the data were processed

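Per the submitters' processing notes and the methods of the study, the authors made the deposited counts (UMIs per gene and barcode, 1 10x 3′ library per genotype) with Cell Ranger 6.1.1. The notes name mm10 and hg38, with no role given. The members and gene lists were chosen with earlier results of these data known. Cells needed 800 to 4500 detected genes. Limits were 20000 UMIs and 8% mitochondrial UMIs, ribosomal protein genes had to supply 10%, and cells with 2 or more UMIs of Cd3 or C1q genes were dropped. Plasma-marker cells were exempt from the upper limits on genes and UMIs and from the ribosomal minimum, but not from the 8% mitochondrial limit. No doublet caller was run. Classes required a fixed number of markers, namely 6 of 10 (plasma), 3 of 8 (GC, dividing, interferon), 2 of 5 (transitional), 3 of 6 (marginal zone), 4 of 8 (MYC-high) or 3 of 7 (resting). Raw UMIs were summed per class and library, and sums of at least 20 cells (waived for plasma-marker cells with at least 10% immunoglobulin) were tested with edgeR 4.0.16 (R 4.3.3, TMM, low-count filter, quasi-likelihood) and a library term, called at an adjusted p under 0.05. DESeq2 1.42.0 was an alternative, as were other filters, markers, gene totals and scanpy 1.11.5 clusters. The tests were tested on simulated data. Exact intervals used SciPy 1.17.1. All members were named, with at most the 2 highest and 2 lowest partners per list among those past the test. For likeness, the 3 genes of highest r of log2(UPM + 5) were taken. Some genes that these rules select are not reported here.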

Additional observations from a re-analysis of the deposited data

Results flagged for a closer look

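Bcl2l11 in the 3′RR-BCL2 library stood on different sides of WT in different classes. The ratio to WT was 1.17 in MYC-high cells and 2.82 in plasma-marker cells, with counting intervals above 1, and 0.553 in interferon-activated cells, with an interval below 1. In cells with 3000 to 6000 UMIs, a band chosen after the data were seen, the interferon ratio was 1.06 and the MYC-high ratio 1.05, and with markers counted at 2000 UMIs the MYC-high ratio was 0.901. A single cell held 36 of the 121 Bcl2l11 UMIs of the plasma-marker class in 3′RR-BCL2 and another 11 of the 25 in WT, and without them the ratio was 3.47. The difference between the classes was not tested. With 1 library per genotype the intervals cover counting error only.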

How the results depend on the processing

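No paired analysis was possible because the genotypes share 1 replicate number with 1 library each. Of 1658 alternative values for 332 results, 1499 stayed on their side of the threshold or within their interval, and the cause of the other changes was not tested. Signs turned in 54 of 712 class contrasts and 85 of 631 genotype ratios, of which 53 had no call in either fit and 79 a main ratio short of 1.5-fold. Without the replicate block (no library term), members called were 1 of the main 2 in transitional and 1 of the main 2 in marginal zone cells. Of all genes, 2.42% and 6.58% were called there, against 4.18% and 10.4% in the main fit. Leaving out a library gave 0 to 2 calls in transitional, 1 to 2 in marginal zone and 1 to 4 in MYC-high cells. Shares of all genes called also fell, to 1.5% to 2.68%, 4.74% to 8.09% and 6.91% to 8.27% in these classes. DESeq2 called 1 in marginal zone cells, and resting cells with at least 6000 UMIs (chosen after seeing the data) also gave 1. These fits called 11.3% and 6.98% of all genes in that class. Cluster classes gave 1 in transitional cells, where 6.39% of all genes were called, and 7, against the main 3, in MYC-high cells. There, 1 marker more gave 7, while markers counted at 2000 UMIs, a fit of only both classes, and a fit of resting, MYC-high and GC sums (chosen after seeing the data) gave 6 each. Calls over all genes moved with these counts in MYC-high cells, at 15.7% in the main fit, 42.6% with clusters, 32.8% with 1 marker more, 42.3% at 2000 UMIs, and 30.7% and 21.4% in both smaller fits. Plasma-marker cells with at least 10% immunoglobulin (chosen after seeing the data) gave 4, against 7, where 28.2% of all genes were called, against 60%. Members past 1.5-fold in MYC-high cells of 3′RR-BCL2 were 1 in the main analysis, 2 with more markers and 0 with markers counted at 2000 UMIs. Clusters gave 3, cells weighted alike 2, and cells with 3000 to 6000 UMIs (chosen after seeing the data) 3. Of all genes, 471 of 10945 were higher and 631 lower in the main analysis. More markers gave 476 and 640 of 10212, and markers at 2000 UMIs 412 and 1031 of 7689. Clusters gave 404 and 1053 of 9461, cells weighted alike 485 and 705 of 10945, and the UMI band 476 and 900 of 8387. In Igκ-BCL2, clusters gave 5 in MYC-high cells, against 3, and markers counted at 2000 UMIs gave 6 in non-dividing GC cells, against 3. Of all genes, clusters put 715 higher and 654 lower of 9730 in MYC-high cells, against 704 and 708 of 10819. Markers at 2000 UMIs put 1164 higher and 934 lower of 6572 in non-dividing GC cells, against 1541 and 1046 of 8586. Of the remaining turned signs, Bmf turned in dividing GC cells with the looser filter (-0.757, main 0.06). For 3′RR-BCL2 over WT, clusters turned transitional Bak1 (0.847) and Bcl2l11 (1.24) and marginal zone Bad (1.04), and the 3000 to 6000 UMI band turned Bcl2l11 in interferon-activated cells (1.06). For Igκ-BCL2 over WT in MYC-high cells, that band turned Bmf (0.923) and cells without Hspa1a or Hspa1b UMIs turned Bbc3 (0.832). Few UMIs limit Bmf and Bbc3 in GC cells of WT, which had 5 and 10 UMIs in the non-dividing class. Bik had at most 4 UMIs in any class of any library. Its upper bounds in resting cells were 0.462, 0.152 and 0.227 UPM in 3′RR-BCL2, Igκ-BCL2 and WT.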
